A study of Homo sapiens with 9 samples.

Results

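Ephrin receptors are receptor tyrosine kinases that bind ephrins, ligands which stay attached to the surface of the neighbouring cell, so that both partners signal where cells touch. Ephrin-A ligands are held in the membrane by a lipid anchor and mostly bind EPHA receptors, whereas ephrin-B ligands span the membrane and mostly bind EPHB receptors. In the intestinal epithelium, gradients of EPHB receptors and ephrin-B ligands keep proliferating and differentiated cells apart along the crypt, and EPHA2 is a receptor of many epithelial tumours.

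The 10 genes described here are the receptors EPHA1, EPHA2, EPHA4, EPHB4 and EPHB6 and the ligands EFNA1, EFNA4, EFNA5, EFNB1 and EFNB2. They were taken by symbol from the 58920 genes listed in each count table and are 10 of the 22 family genes listed there. All 10 passed the minimum of 10 counts over the 9 libraries and entered the test, although EPHA4 and EPHB6 did so on 46 and 261 counts in all.

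RNA was sequenced from LIM1215, an epithelial line from a human colorectal carcinoma. The parental line, LIM1215-parental (labelled Parental), was compared with LIM1215-R1 and LIM1215-R2 (labelled Resistant_1 and Resistant_2; R1 and R2 below), which had each been selected over months in rising doses of cetuximab, an antibody against the epidermal growth factor receptor EGFR. Both resistant lines are mixed populations rather than single-cell clones, and none of the 3 lines was under treatment when the RNA was taken. Each line had 3 libraries, which the study calls technical replicates, so the p-values measure the spread between these libraries and cannot tell a difference between lines from a difference between cultures of 1 line. As bulk RNA was measured, fewer cells with a transcript and less of it per cell cannot be told apart.

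The libraries held 13737416 to 18725014 counts, at which 3 counts correspond to 0.160 to 0.218 CPM (counts scaled to library size), taken here as the floor of a library. Intervals and floors cover counting error only. The epithelial markers summed to 11624 to 12004 CPM in the parental line, 15102 to 15362 CPM in R1 and 13658 to 14063 CPM in R2, with KRT20 at 0 in all 9 libraries. Most of the sum was KRT8 and KRT18, which with VIL1 were higher in both resistant lines, whereas EPCAM (911, 758 and 729 CPM in the parental line, R1 and R2) and CDX2 (413, 305 and 283 CPM) were lower in both and CDH1 (378, 343 and 347 CPM) did not pass the test of differences used below. The part of these markers in the results that follow was not tested. Fibroblast markers summed to at most 3.01 CPM and endothelial markers to at most 0.722 CPM, with KDR at 0 throughout. Leukocyte markers reached 14.2 CPM, with PTPRC and CD3E at 0.

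Sequences before the start site are shown for EPHA2, which was the most abundant receptor per kb, and for EPHA1, which moved against EPHA2. Each runs 5′ to 3′ over the 250 bases before the annotated start, on hg38 coordinates, with matches to the motifs searched in capitals. EPHA2 lies on the minus strand of chromosome 1 (gene 16124337 to 16156069) and EPHA1 on the minus strand of chromosome 7 (143390289 to 143408856).
EPHA2, chr1:16156070-16156319, minus strand, RefSeq: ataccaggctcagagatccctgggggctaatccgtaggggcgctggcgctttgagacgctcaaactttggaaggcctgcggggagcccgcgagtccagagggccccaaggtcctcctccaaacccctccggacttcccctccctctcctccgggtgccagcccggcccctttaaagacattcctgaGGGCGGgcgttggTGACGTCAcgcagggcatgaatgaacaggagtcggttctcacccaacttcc
EPHA1, chr7:143408857-143409106, minus strand, RefSeq: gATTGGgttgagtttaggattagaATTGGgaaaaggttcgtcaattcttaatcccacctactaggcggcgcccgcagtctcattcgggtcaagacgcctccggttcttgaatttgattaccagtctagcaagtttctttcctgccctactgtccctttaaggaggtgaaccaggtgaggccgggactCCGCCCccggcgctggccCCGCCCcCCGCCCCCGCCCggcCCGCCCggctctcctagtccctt

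The motifs searched on both strands were the cyclic AMP response element (CRE, TGACGTCA), AP-1 (TGANTCA), the E-box (CACGTG), the GC box (GGGCGG), the CCAAT box (CCAAT) and the TCF motif (CTTTGAT). In windows that reach 50 bases past the start, all 10 genes were matched in RefSeq, among 35116 promoters of that length with a median of 14.0 CpG. The CRE, which 1.85% of all promoters held, was found in 1 member, EPHA2, at position -51 from the start. No member window held AP-1 (7.71% of all promoters), the E-box (7.26%) or the TCF motif (2.62%). The GC box, held by 45.0% of all promoters, was in every member window. The windows of EPHA1, EFNA1 and EPHB4 and 1 window of EPHA4 had 5 each.

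The EPHA2 window held 20 CpG and the EPHA1 window 21, and the fullest of the member windows was that of EFNB2, with 49. The window of EPHB6, a gene on the plus strand of chromosome 7 (142855061 to 142871094), held 3 CpG. Its annotated start, however, opens an exon that is the first exon of 2 GENCODE transcripts and a later exon of 6. For those 6 the window lies inside the gene. Gene counts do not say which start was used.

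In R1 against the parental line, 4 of the 10 genes were higher (EPHA2, EPHB6, EFNB1 and EFNB2), 3 were lower (EPHA1, EPHB4 and EFNA4) and 3 did not pass an adjusted p of 0.01 in edgeR's quasi-likelihood test. Over the 19102 genes tested, 14.0% passed as higher and 13.4% as lower. In R2 against the parental line, EPHA2, EPHB6 and EFNB2 were higher and EPHA1, EPHB4 and EFNA4 lower, beside 12.3% and 11.6% of all genes. Well-counted genes passed more often: with at least 10 counts in every library, 4505 of 12180 genes passed in R1 and 3900 in R2. These included 6 and 5 members, where EPHA4 and EPHB6 did not meet that filter and were not tested. The study's rule also asks for a log2 change of 1.5 or more in size, and was applied here to edgeR values without shrinkage. EPHB6 was then the single member called in each resistant line, where 5.14% of all genes were called in R1 and 4.82% in R2. The study instead used DESeq2 and shrank its fold changes. With DESeq2 and shrinkage of the normal type, 394 genes were called in R1 and 408 in R2, again with EPHB6 as the single member in each. The study does not name its type of shrinkage. It reports more genes shared by both lines than were called here in either, so this setting did not reproduce its calls. The median absolute log2 fold change of the members was 0.57 in R1 and 0.48 in R2, and that of all genes tested 0.30 and 0.28. Both comparisons use the same parental libraries, so a shared direction is not independent evidence.

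**Figure D1:**
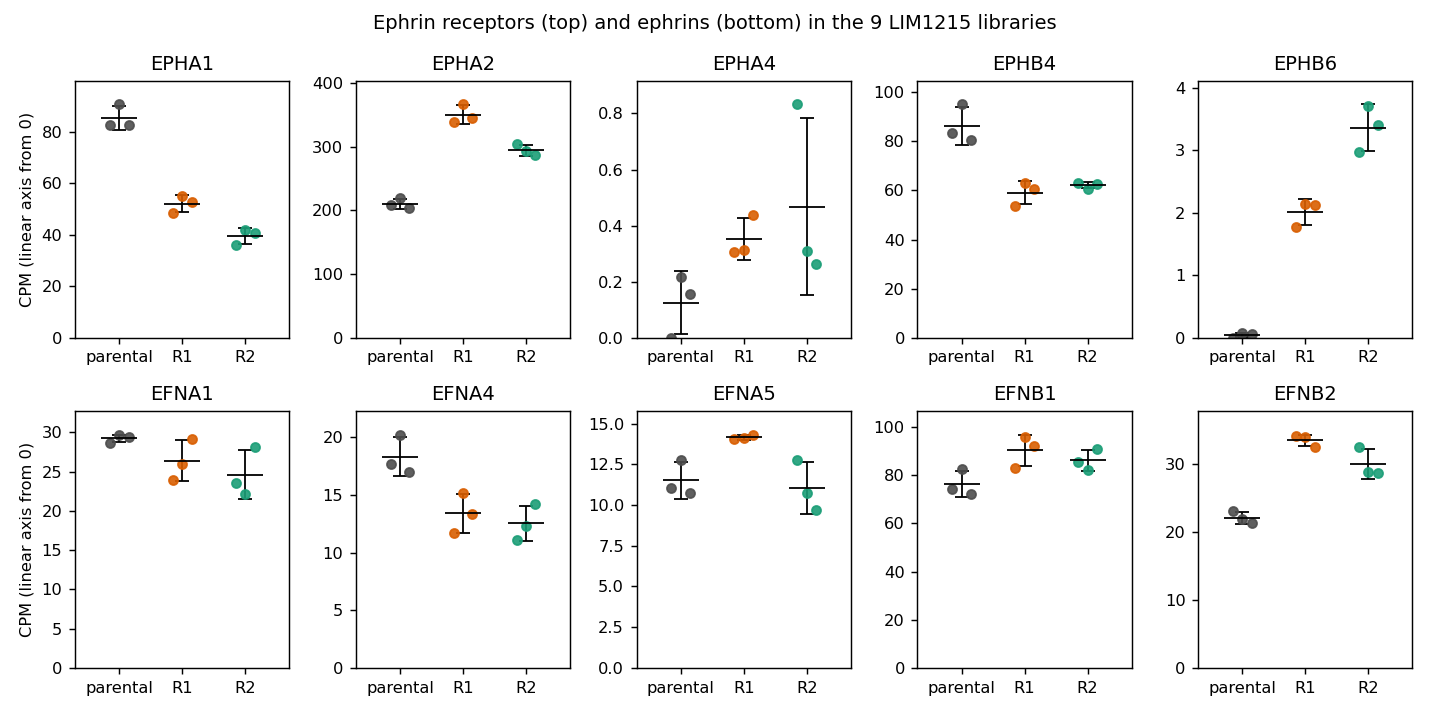
Level of each of the 10 genes in CPM (linear axis from 0, a separate scale in each panel) in the parental line, R1 and R2, with 1 point for each of 3 libraries and the mean and SD as bars. EPHA2 rose and EPHA1 fell with no overlap between any of the lines, and EPHB6 was close to 0 in the parental line alone.

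Among the EPHA receptors, EPHA2 rose and EPHA1 fell. EPHA2 signals through its kinase when it is bound by ephrin-A1 and also has ligand-independent activity. It stood at 208, 219 and 204 CPM in the 3 libraries of the parental line, 338, 366 and 345 CPM in R1, and 304, 293 and 287 CPM in R2. The 3 lines did not overlap, with the parental line lowest and R1 highest. The log2 fold change was 0.73 ± 0.0455 (SE) in R1 (edgeR, adjusted p = 3.14e-13) and 0.49 ± 0.0455 in R2 (adjusted p = 1.39e-09), a 1.66-fold and a 1.40-fold higher level.

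EPHA1, the first member of the family to be described and a receptor of ephrin-A ligands in epithelia, went the other way. Its level was 82.6, 90.7 and 82.9 CPM in the parental line, 48.5, 54.9 and 52.9 CPM in R1, and 36.1, 41.9 and 40.8 CPM in R2. Again no 2 lines overlapped, here with the parental line highest and R2 lowest. EPHA1 fell by 0.71 ± 0.0659 on the log2 scale in R1 (edgeR, adjusted p = 1.17e-09) and fell by 1.11 ± 0.0677 in R2 (adjusted p = 2.32e-13), to 0.611 and 0.464 of its level in the parental line.

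EPHA4, a receptor that binds both classes of ephrin, was close to the floor. It had 0, 3 and 3 counts in the parental line, 5, 5 and 7 in R1, and 14, 5 and 4 in R2. Its counts in R2 came mostly from 1 library. The log2 fold changes of 1.49 ± 0.760 in R1 (edgeR, adjusted p = 0.137) and 1.91 ± 0.722 in R2 (adjusted p = 0.0439) did not pass the threshold of 0.01, so no difference was detectable at this depth.

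Among the EPHB receptors, EPHB6 rose from near 0 and EPHB4 fell. EPHB6 has an inactive kinase domain and signals with other receptors of the family. It had 0, 1 and 1 counts in the parental line, 29, 34 and 34 in R1, and 50, 60 and 52 in R2. In the parental line every library was under the floor of 3 counts, and both resistant lines lay clear of it, at 2.01 ± 0.203 and 3.36 ± 0.373 CPM (SD, n = 3). The ratio of summed counts, set against library size, was 50.1 in R1 (exact 95% counting interval 13.5 to 419.7) and 83.6 in R2 (22.8 to 696.3), and its width comes from the 2 counts in the parental line. The edgeR adjusted p was 9.91e-10 in R1 and 9.09e-12 in R2. The level stayed low, however: per kb of transcript EPHB6 made up 0.342% of all ephrin receptor RNA in R1 and 0.607% in R2.

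EPHB4, the receptor of ephrin-B2, was measured at 83.3, 95.1 and 80.5 CPM in the parental line, 53.8, 63.0 and 60.4 CPM in R1, and 63.2, 60.8 and 62.4 CPM in R2. All libraries of both resistant lines were below those of the parental line, and the resistant lines overlapped each other. EPHB4 fell by 0.54 ± 0.0668 on the log2 scale in R1 (edgeR, adjusted p = 2.08e-07) and fell by 0.47 ± 0.0666 in R2 (adjusted p = 2.08e-06).

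Among the ephrin-B ligands, EFNB2 rose in both resistant lines, opposite in direction to its receptor EPHB4. EFNB2 stood at 23.1, 21.9 and 21.3 CPM in the parental line, 34.1, 34.0 and 32.6 CPM in R1, and 32.5, 28.8 and 28.7 CPM in R2. Every resistant library was above every parental library. The log2 fold change was 0.60 ± 0.0768 in R1 (edgeR, adjusted p = 3.66e-07) and 0.44 ± 0.0777 in R2 (adjusted p = 4.6e-05). Set against each other per kb of transcript, EFNB2 was at 0.224 ± 0.0212 of the EPHB4 level in the parental line, 0.497 ± 0.0477 in R1 and 0.421 ± 0.025 in R2 (SD, n = 3).

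EFNB1, a ligand of EPHB2 and EPHB3, ran from 72.3 to 82.5 CPM in the parental line, 83.0 to 95.8 CPM in R1 and 82.2 to 91.0 CPM in R2. It was 0.24 ± 0.0634 higher on the log2 scale in R1 (edgeR, adjusted p = 0.00299), while the difference of 0.18 ± 0.0635 in R2 did not pass (adjusted p = 0.0324). The call in R1 depended on single libraries: without replicate 1 or 3 of the parental line, or replicate 2 or 3 of R1, the adjusted p was 0.0175 to 0.0312. The call in R2 was in turn gained without replicate 2 of the parental line (adjusted p = 0.00478) and in the fit blocked on replicate number (adjusted p = 0.00924). It was also gained with the trends of GC content and length removed.

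Among the ephrin-A ligands, EFNA4 fell, and neither EFNA1 nor EFNA5 passed the test. EFNA4 was measured at 17.6, 20.2 and 17.0 CPM in the parental line, 11.7, 15.1 and 13.3 CPM in R1, and 11.1, 12.3 and 14.2 CPM in R2. The highest resistant library was below the lowest parental library. EFNA4 fell by 0.44 ± 0.109 on the log2 scale in R1 (edgeR, adjusted p = 0.00179) and fell by 0.54 ± 0.110 in R2 (adjusted p = 0.000266). In R1 the call was lost without replicate 2 of the parental line (adjusted p = 0.01001) or without replicate 1 of R1 (adjusted p = 0.0153).

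EFNA1, the ligand of EPHA2 that was first found as a gene induced by tumour necrosis factor, ran from 28.7 to 29.6 CPM in the parental line, 24.0 to 29.2 CPM in R1 and 22.1 to 28.2 CPM in R2. Its log2 differences of -0.15 ± 0.0880 (edgeR, adjusted p = 0.209) and -0.25 ± 0.0887 (adjusted p = 0.0313) did not pass, though without replicate 3 of R2 the latter had an adjusted p of 0.00389. EFNA5, an ephrin-A that can also bind EPHB2, ran from 10.7 to 12.8 CPM in the parental line, 14.0 to 14.3 CPM in R1 and 9.67 to 12.8 CPM in R2. Its log2 differences were 0.31 ± 0.110 in R1 (edgeR, adjusted p = 0.0292) and -0.05 ± 0.114 in R2 (adjusted p = 0.812). With the trends of GC content and length removed, however, EFNA5 passed as higher in R1 (log2 difference 0.39, adjusted p = 0.00167) and as lower in R2 than in R1 (-0.42, adjusted p = 0.003).

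**Figure D2:**
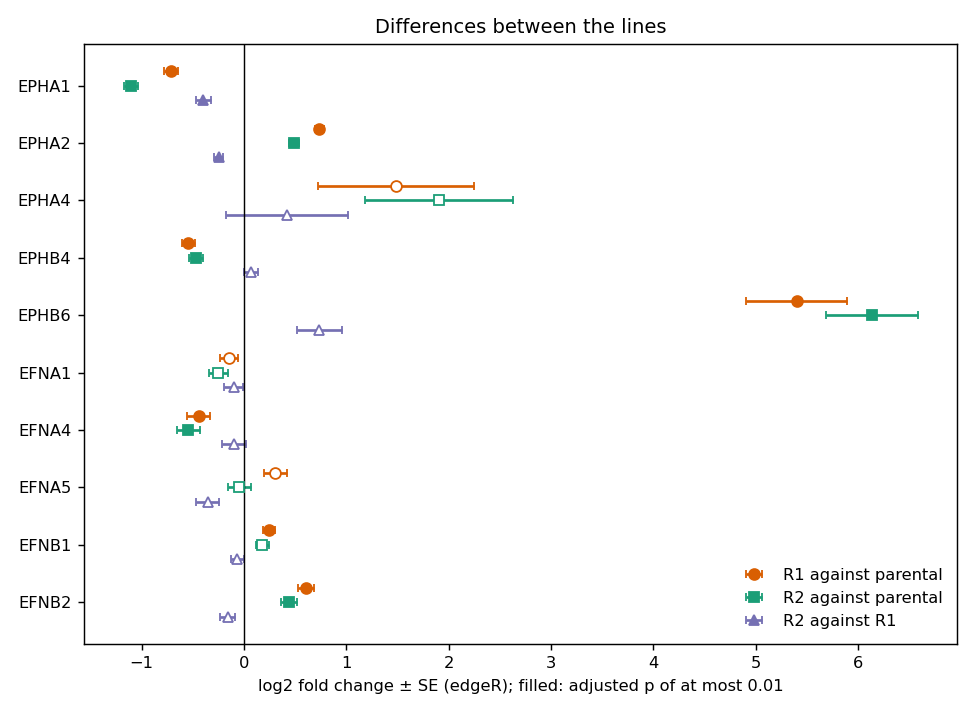
Fitted log2 fold change of each gene (horizontal axis, with the SE as bar) for R1 and R2 against the parental line and for R2 against R1, with filled symbols at an edgeR adjusted p of at most 0.01. EPHB6 stands far to the right at 5.40 and 6.14, while the fitted changes of the other called genes lie between -1.11 and 0.73. The fitted values of EPHB6 depend on the 2 counts in the parental line.

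The resistant lines themselves differed in 2 members, both lower in R2 than in R1. EPHA1 fell by 0.40 ± 0.0700 on the log2 scale (edgeR, adjusted p = 0.00023) and EPHA2 fell by 0.25 ± 0.0449 (adjusted p = 0.000317), with no overlap between the libraries of the lines. EPHA1 was thus furthest from the parental line in R2, and EPHA2 in R1. No member passed as higher in R2, where 3.39% of all genes did, against 3.77% as lower, and by the study's rule 0 members and 0.764% of all genes were called. EPHB6 was 0.74 ± 0.217 higher in R2 on the log2 scale, with separate ranges, but did not pass (edgeR, adjusted p = 0.0227). That result depended on the method. It passed with the trends of GC content and length removed (edgeR, adjusted p = 0.00983) and did not with the DESeq2 Wald test (adjusted p = 0.0899).

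To compare the genes with each other, CPM were divided by the length of the canonical transcript and expressed as a share of all 14 receptors or all 8 ephrins. Per kb, EPHA2 was the most abundant receptor in every line. It had 39.4% ± 0.43 of receptor RNA in the parental line, 60.3% ± 0.66 in R1 and 53.9% ± 1.3 in R2 (SD, n = 3). EPHA1 went from 19.1% ± 0.21 to 10.7% ± 0.25 and 8.63% ± 0.74, and EPHB4 from 14.6% ± 0.65 to 9.22% ± 0.38 and 10.3% ± 0.13. EPHA2 thus exceeded EPHA1 by 2.07 ± 0.0453 times in the parental line, 5.64 ± 0.192 times in R1 and 6.28 ± 0.685 times in R2, the resistant lines lying next to each other at 5.47 to 5.85 and 5.86 to 7.07 times. The sum of all EPHA receptors was 1.54 ± 0.0153 times that of the EPHB receptors in the parental line, 2.73 ± 0.0877 times in R1 and 1.90 ± 0.0719 times in R2. A share depends on all genes in its sum and on the length used: with the summed length of all annotated exons the share of EPHA2 was 44.5%, 65.0% and 58.3%. EPHB2 is longer still by that measure, at 12.5 kb. A shorter EPHB2 length would lower the share of EPHA2 and the ratio of EPHA to EPHB, and was not tried.

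EFNB1 was the most abundant ephrin in every line, at 28.8% ± 0.94, 33.6% ± 0.41 and 34.2% ± 0.48 of ephrin RNA per kb in the parental line, R1 and R2. EFNA1 followed at 23.5% ± 0.80 in the parental line, with EFNA3 at 21.0% ± 1.5 and EFNA4 at 18.2% ± 0.93. The order of these 3 depended on the length: with all annotated exons EFNA3 had 21.4%, EFNA4 19.7% and EFNA1 18.4%, while EFNB1 stayed first in each line. EFNB2 made up 5.52% ± 0.40, 8.30% ± 0.79 and 7.88% ± 0.83, and EFNA5 between 2.67% and 3.25%. The summed ephrin-B level was 0.523 of the ephrin-A level in the parental line, 0.723 in R1 and 0.729 in R2.

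**Figure D3:**
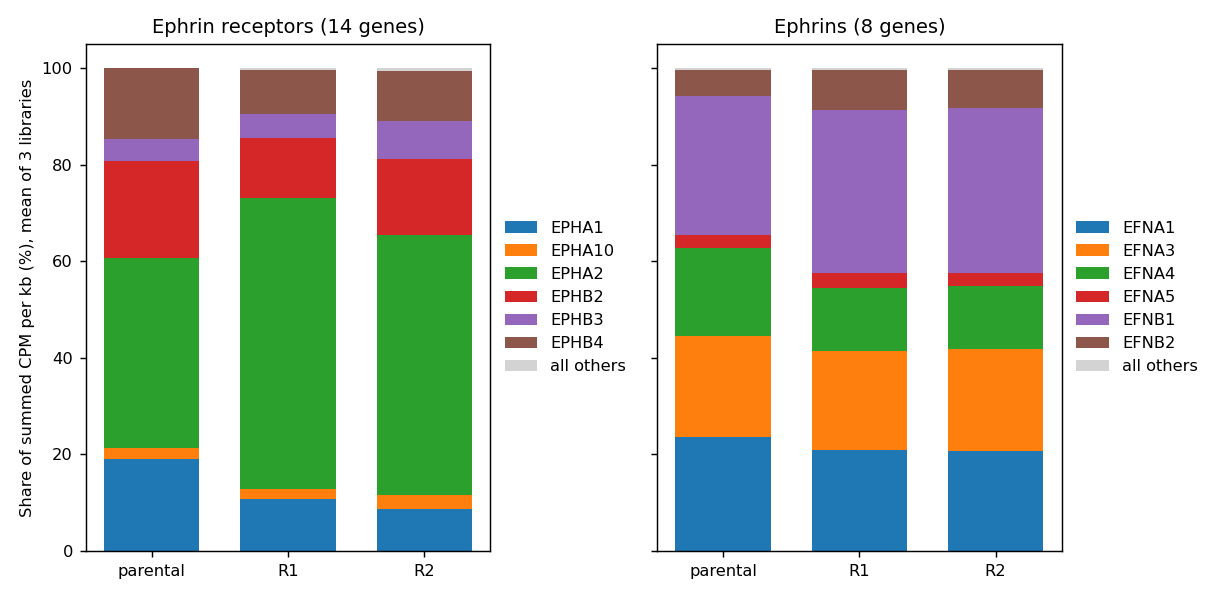
Share of each gene (vertical axis, per cent) in the summed CPM per kb of the 14 ephrin receptors and of the 8 ephrins, as the mean of 3 libraries in the parental line, R1 and R2. The EPHA2 segment grows from 39.4% to 60.3% and 53.9%, and EFNB1 is the tallest ephrin segment in each line.

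The other 12 family genes set the members in context. EPHB2 stood at 299 ± 8.77, 201 ± 7.48 and 241 ± 8.28 CPM in the parental line, R1 and R2 (SD, n = 3) and was lower in both resistant lines (edgeR, adjusted p = 5.4e-11 and 3.07e-06). EPHB3 was at 26.6 ± 0.905, 30.5 ± 1.27 and 46.3 ± 1.71 CPM, and passed as higher in R2 (edgeR, adjusted p = 3.33e-10) but not in R1 (adjusted p = 0.0344). EPHA10, a receptor with an inactive kinase domain, was at 16.2, 17.0 and 22.2 CPM, and was higher in R2 by 0.46 ± 0.0888 on the log2 scale (edgeR, adjusted p = 0.000159). EFNA3 differed in neither comparison at the threshold, with -0.02 and -0.07 on the log2 scale. EFNA2 with 89 counts in all and EFNB3 with 14 were tested and not called. EPHA3, EPHA5, EPHA7 and EPHA8 had 0 counts in all libraries, which allows up to 0.0602 to 0.0622 CPM over the libraries of a line, and EPHA6 with 3 counts and EPHB1 with 7 were not tested.

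Of 43 genes that act with the receptors and ephrins, 41 were tested, and more passed as lower than as higher: 12 against 5 in R1 and 14 against 1 in R2. Of all genes tested, 13.4% passed as lower and 14.0% as higher in R1, and 11.6% and 12.3% in R2. Well-counted genes passed more often. With at least 10 counts in every library, 4505 of 12180 genes passed in R1 and 3900 in R2 in either direction, 16 and 14 of them listed genes. The share of all genes is thus a low measure for this list. Listed genes with fewer counts, VAV3 among them, were not tested under that filter. The median log2 fold change of the listed genes was -0.12 and -0.07, where all genes tested had -0.01 and 0.00. The count in R1 fell furthest without replicate 3 of the parental line, the library with the most counts, where 10 in place of 17 genes passed. Over all genes, 4251 in place of 5222 passed in that fit. Without replicate 1 of the parental line or replicate 3 of R1, 13 listed genes passed. ARHGEF15 had 0 counts and GRIP1 had 8, and neither was tested.

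The guanine nucleotide exchange factors, which activate small GTPases below the receptors, had 4 of 9 tested genes lower and 0 higher in each resistant line, where 13.4% (R1) and 11.6% (R2) of all genes were lower and 14.0% and 12.3% higher. VAV3, an exchange factor recruited to activated EPHA2, had 182, 145 and 215 counts in the parental line, 7, 3 and 2 in R1, and 3, 0 and 5 in R2. It went from 10.8 ± 0.418 CPM to 0.248 ± 0.161 and 0.168 ± 0.164 CPM, with a fitted log2 fold change of -5.40 ± 0.286 in R1 (edgeR, adjusted p = 1.11e-14) and -5.97 ± 0.308 in R2 (adjusted p = 6.59e-15). The other genes lower in both lines were VAV2, ITSN1 and NGEF, an exchange factor of EPHA4. These and the further genes of the list below, other than FYN and CHN2, are named to complete the counts, after their values were seen.

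Of the 14 kinases and adaptors, 4 were lower in R1 (FYN, ABL2, GRB10 and CRKL) and 6 in R2 (SRC, FYN, ABL2, NCK1, NCK2 and GRB10), and 0 were higher, beside 13.4% and 11.6% of all genes lower and 14.0% and 12.3% higher. FYN, a Src family kinase that phosphorylates ephrin-B and acts below EPHA receptors, was at 7.13 ± 0.549 CPM in the parental line, 4.85 ± 0.288 CPM in R1 and 2.60 ± 0.465 CPM in R2 (SD, n = 3). It fell by 0.56 ± 0.145 and by 1.45 ± 0.161 on the log2 scale (edgeR, adjusted p = 0.0031 and 3.46e-08), and was lower in R2 than in R1 (adjusted p = 0.000605).

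Of the 7 genes of receptor attenuation and cleavage, 3 were lower in each resistant line, INPPL1 and ADAM10 among them in both. PTPN1 was higher in R1, and 0 were higher in R2. Of all genes tested, 13.4% (R1) and 11.6% (R2) were lower and 14.0% and 12.3% higher. INPPL1, the lipid phosphatase SHIP2 that binds EPHA2 and slows its uptake into the cell, fell by 0.65 ± 0.0673 and by 0.84 ± 0.0681 on the log2 scale (edgeR, adjusted p = 9.11e-09 and 8.53e-11). ADAM10, the protease that cleaves ephrins from the cell surface, fell by 0.30 ± 0.0466 and by 0.17 ± 0.0465 (adjusted p = 6.91e-06 and 0.00572).

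The ephrin-B partners, which bind the inner end of the transmembrane ligands, had PICK1 higher in both lines and SDCBP higher in R1, of 5 tested. None was lower. Of all genes tested, 14.0% (R1) and 12.3% (R2) were higher and 13.4% and 11.6% lower. PICK1 rose by 0.46 ± 0.0708 and 0.35 ± 0.0713 on the log2 scale (edgeR, adjusted p = 7.1e-06 and 0.000337). Of the 6 genes of cytoskeletal output, RHOA was lower in both lines, and CFL1 and CHN2 were higher in R1, beside the same shares of all genes. CHN2, which switches off the GTPase RAC, was at 2.75 ± 0.40, 4.43 ± 1.16 and 1.61 ± 0.12 CPM in the parental line, R1 and R2 (SD, n = 3). It was higher in R1 (edgeR, adjusted p = 0.00939), missed the threshold in R2 (-0.78 ± 0.238, adjusted p = 0.0124), and was lower in R2 than in R1 by a log2 difference of -1.45 ± 0.223 (adjusted p = 3.66e-05). SDCBP and FYN were the other 2 genes that differed between the resistant lines, both lower in R2.

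**Figure D4:**
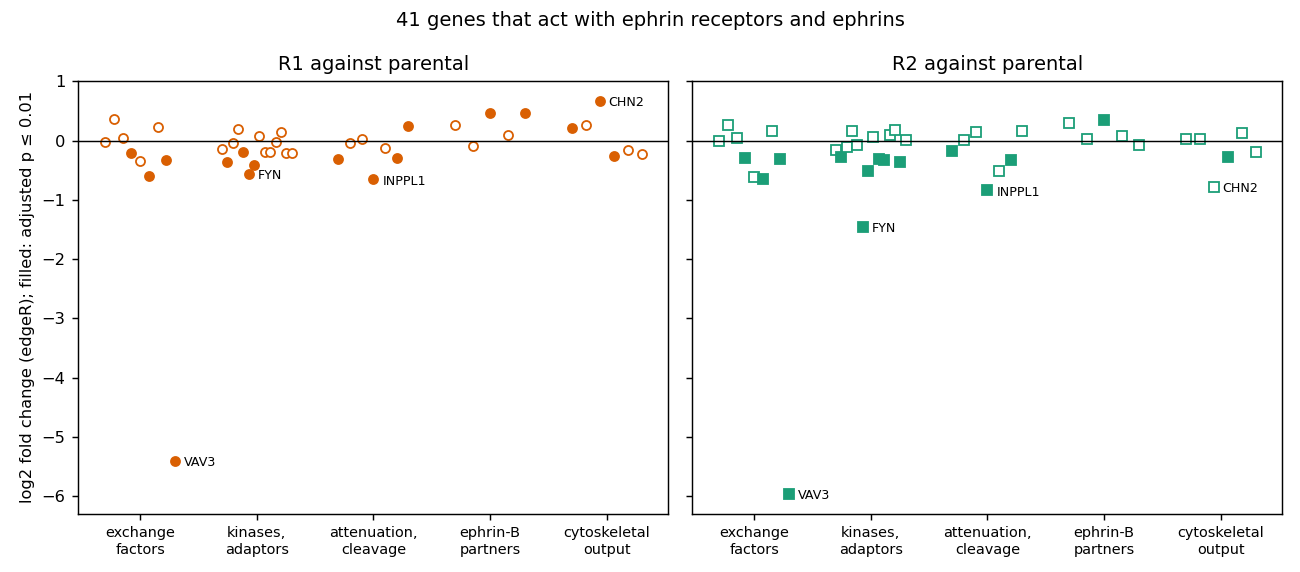
Fitted log2 fold change (vertical axis) of the 41 tested genes that act with ephrin receptors and ephrins, grouped by role, for R1 and R2 against the parental line, with filled symbols at an edgeR adjusted p of at most 0.01. VAV3 lies at -5.40 and -5.97, apart from the remaining genes, which lie between -1.45 and 0.67.

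EFNA4, EFNA3 and EFNA1 lie side by side on the plus strand of chromosome 1, with EFNA4 at 155063737 to 155069553, EFNA3 at 155078837 to 155087538 and EFNA1 at 155127876 to 155134899 (hg38). Of these, EFNA4 alone was called. Of 16 other tested genes within 100 kb of EFNA4 or EFNA1, 0 were lower and 2 higher in each resistant line at the threshold. Over all genes tested, 13.4% were lower and 14.0% higher in R1, and 11.6% and 12.3% in R2. With 16 genes, such counts do not set EFNA4 apart from its surroundings. ADAM15, the gene before EFNA4, was higher by 0.27 in R1 and 0.23 in R2 on the log2 scale, MUC1 was higher by 1.13 in R1 (edgeR, adjusted p = 0.0027) and SLC50A1 by 0.33 in R2. A readthrough gene that joins EFNA4 to EFNA3 is annotated on the same strand in GENCODE 44 and was not among the genes listed, so reads from such a transcript could be counted for EFNA4, and its level is uncertain in that respect.

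Among 9302 genes with a mean of at least 10 CPM, the levels closest to the course of EPHA2 over the 9 libraries were those of CXCL16 (Pearson r = 0.9971), STING1 (0.996) and CTSH (0.9944), and 810 genes had r of at least 0.9. For EFNB1 they were AP1B1 (0.9883), PRDX2 (0.9867) and CDC42EP1 (0.9865), with 283 genes at that limit. The libraries form 3 lines, so these values describe 3 levels and the scatter within them.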

How the data were processed

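Stranded poly(A) RNA libraries (3 each) of the parental line and of R1 and R2 were sequenced in pairs. The authors aligned reads to hg38 with STAR and deposited raw counts per gene from htseq-count (HTSeq 0.9.1, reverse strand), without normalization, and the annotation used for counting is not given in the sources used here. The tables list gene symbols and counts only, and the samples were grouped by their labels. No pair of libraries agreed within sampling noise.

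Genes reaching 10 counts in the 9 libraries together were tested with edgeR 4.0.16 (R 4.3.3), by TMM normalization and the quasi-likelihood test in 1 model of the 3 lines, with Benjamini-Hochberg adjustment over all 19102 genes, after the script was tested on simulated data. CPM were scaled by the TMM library sizes. A gene passed with an adjusted p up to 0.01, and the study's rule also asks for a log2 change of 1.5 or more in size. Except where DESeq2 is named, that rule was applied to edgeR fold changes without shrinkage. Fold changes are given with their SE and levels as mean ± SD. Lengths and positions come from GENCODE 44 and start-site windows from RefSeq (GRCh38.p14). Some items of the signalling list and of the start-site windows are not reported here. The ratio of EPHB6 has an exact 95% interval for 2 Poisson counts.

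The text names the 10 members, the other family genes with at least 10 counts, genes of the signalling list with a log2 change of 1 or more in size in a called comparison, called neighbours within 100 kb of EFNA4 or EFNA1, and the 3 genes most like the receptor and the ephrin highest per kb. Members and lists were chosen with earlier results of these data known. Alternatives covered normalization by DESeq2 size factors or total counts, low-count filters, DESeq2 1.42.0 with and without shrinkage, fits of 6 libraries, the replicate number as a block, other thresholds and each library left out.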

Additional observations from a re-analysis of the deposited data

Results flagged for a closer look

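Against the parental line, 2 receptors moved to a different extent in the resistant lines, by the test of R2 against R1 in the same model. EPHA1 was lower in R2 by a log2 difference of -0.40 (edgeR, adjusted p = 0.00023) and lower in 3 of 3 libraries than in any library of R1. EPHA2 was lower in R2 by a log2 difference of -0.25 (edgeR, adjusted p = 0.000317), again in 3 of 3 libraries. Both differences passed under each alternative that was run, and whether they belong to the lines or to the cultures the RNA came from cannot be told apart.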

How the results depend on the processing

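Calls of EPHA1, EPHA2, EPHB4 and EFNB2 against the parental line were the same under each alternative, and over all single members 515 fits kept direction and call, 6 lost the call, 7 gained it and 4 changed sign. By the study's rule 0 members were called in R1 and in R2 when 10 counts were required in every library, which removes EPHB6, and 2 were called in R2 with the limit set to an adjusted p of 0.05 or to a log2 change of 1. Between the resistant lines, 4 members passed at an adjusted p of 0.05, and 4 with the trends of GC content and length removed, an alternative chosen after seeing the data and known for 86.3% of the genes tested. That alternative also turned EFNA4 in R2 against R1 to 0.0048, far from passing. Of the signalling genes, 10 to 17 passed in R1, 12 to 18 in R2 and 3 to 5 between the resistant lines when libraries were left out in turn, the highest of the last without replicate 1 of R1, and 6 passed between them at an adjusted p of 0.05. Leaving out libraries moved EPHA4 between the resistant lines from -0.30 to 0.69 and EFNA5 in R2 against the parental line from -0.17 to 0.037, none of which passed. The cause of these shifts was not tested.

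Deviations of libraries with the same replicate number correlated at -0.171 to 0.488, and those with different numbers at -0.484 to 0.361. For number 1 the values were 0.301, 0.190 and 0.329. Whether the numbers pair the samples cannot be told from these values, and the main fit did not use them. With the number as a block, 5 signalling genes passed between the resistant lines in place of 3, EFNB1 passed in R2, and no other member's call changed. Over all genes, 5841 in place of 5222 then passed in R1, 5197 in place of 4554 in R2 and 2044 in place of 1368 between the resistant lines. EPHA4 and, in the parental line, EPHB6 were limited by depth.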
